A study of Mus musculus with 8 samples.

Results

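The precursors of 8 small signalling peptides were followed in the hippocampus of female mice after chronic DHEA. They are Tac1 and Tac2 (tachykinins), Adcyap1 (PACAP), Cartpt (CART), Nts (neurotensin), Grp (gastrin-releasing peptide), Gal (galanin) and Cort (cortistatin). These 8 were taken by gene symbol from the 29442 genes of the deposited table, and all of them were among the 27612 genes with at least 1 count that were tested. Of the 8 libraries, 4 were labelled DHEA and 4 sesame oil. DHEA is an adrenal androgen precursor, given here by subcutaneous injection at 30 mg/kg/day for 21 days, and sesame oil was its vehicle. The mice were C57BL/6 J females of 6 to 8 weeks with no engineered allele named in the labels or methods, and both groups had passed through behavioural tests before dissection. The methods name the ventral hippocampus, whereas the labels name only the hippocampus. Each library carries its own number, 3, 4, 7 and 11 for DHEA and 5, 9, 10 and 16 for sesame oil, and these numbers pair nothing. Mice were housed 5 to 6 to a cage, and the methods describe the controls as littermates. Neither the cage nor the litter of each library is given, so p-values measure the spread between these 8 libraries.

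The total count per library was 35748416 to 38038361 in DHEA and 31483772 to 35418297 in sesame oil, so every DHEA library was the deeper. At this depth 3 counts corresponded to 0.0808 to 0.0952 CPM (counts per 1000000, after TMM normalization). The direction of every difference follows the deposited treatment labels, and every direction given here would turn if the labels were exchanged.

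Neuropeptides are cut from longer precursor proteins, stored in dense-core granules and released beside fast transmitters, mostly when neurons fire at high rates. Once released they act on G protein-coupled receptors at some distance from the release site. In the hippocampus many of them are made by GABAergic interneurons, while others come from excitatory cells, so the mRNA of 1 precursor often reports on a small fraction of the tissue.

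By mean FPKM the precursors ranked from percentile 41.4 (Gal) to percentile 79.5 (Grp) of the genes tested. Per gene length, Grp was the most abundant at 8.95 ± 1.42 FPKM (the deposited fragment count scaled to gene length and library total, SD, n = 8). It was followed by Tac1 at 5.47 ± 1.01, Cort at 4.91 ± 1.28 and Nts at 4.49 ± 1.26 FPKM. A lower set comprised Tac2 at 1.99 ± 0.31, Cartpt at 1.87 ± 0.61 and Adcyap1 at 1.26 ± 0.39 FPKM. Gal was near the limit of detection at 0.151 ± 0.081 FPKM, with 1 to 7 counts per library. Most neighbours in this order overlapped from library to library, and the only clear step was the last, since the lowest Adcyap1 library (0.591 FPKM) stood above the highest Gal library (0.248 FPKM). The FPKM level of Adcyap1 rests on an implied gene length of 6162 bases, against 677 bases for Cort, so their raw counts stand in the opposite order, with means of 269 and 116.

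For scale, the best-known hippocampal peptide genes were far more abundant per length. Cck (cholecystokinin) was at 150 ± 13 FPKM, Sst (somatostatin) at 146 ± 17 FPKM and Npy (neuropeptide Y) at 48.7 ± 3.8 FPKM (SD, n = 8). Sst, the paralogue of Cort, was thus present at a level far above it. Vip, which belongs to the family of PACAP, was at 10.8 ± 2.2 FPKM, higher than Adcyap1, whereas Nmb, the paralogue of Grp, was lower than Grp at 2.59 ± 0.68 FPKM. Tac4, the remaining tachykinin gene, was at 0.00578 FPKM, and Galp, related to galanin, had 0 counts in every library.

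**Figure D1:**
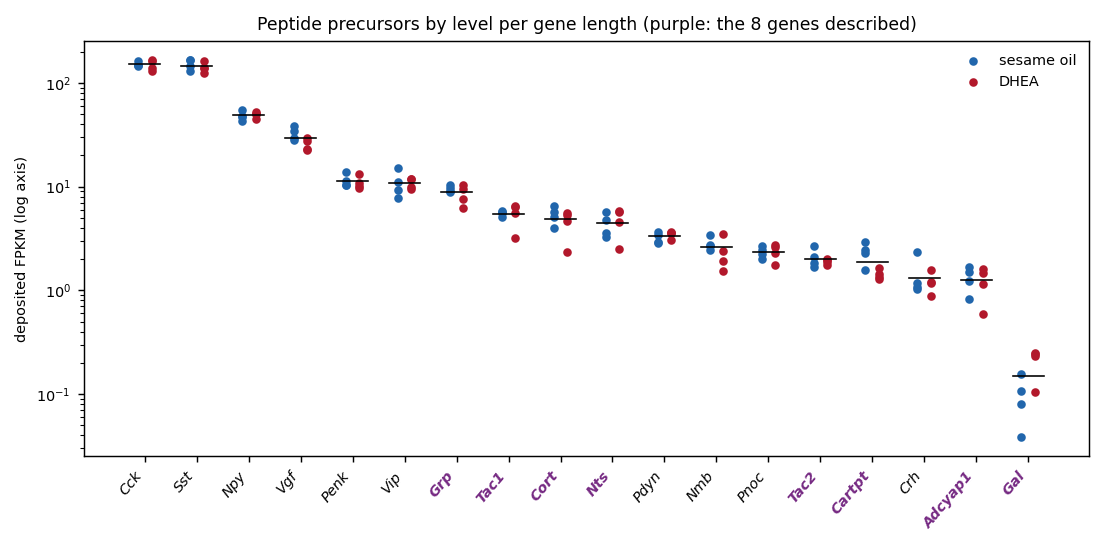
Deposited FPKM (vertical, log axis) of 18 peptide precursor genes, ordered by their mean over the 8 libraries (black line), with sesame oil libraries in blue and DHEA libraries in red. The 8 genes described have purple names. They run from Grp at 8.95 FPKM to Gal at 0.151 FPKM, below Cck, Sst, Npy, Vgf, Penk and Vip, and Tac4 and Galp are left out because of their levels.

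Of the 8 precursors, only Cartpt, which encodes a peptide best known for its part in appetite and reward, passed the threshold of 0.05 before adjustment in the quasi-likelihood test of edgeR, and it was lower in the libraries labelled DHEA. The same threshold was passed by 9.31% of all genes tested, and by 4.49% in the direction of lower and 4.82% in that of higher in DHEA, so 1 of 8 is close to the background. No precursor passed after Benjamini-Hochberg adjustment over all genes, where the smallest adjusted p among them was 0.448 and the share of all genes called was 0%. With the additional requirement of a fold change of at least 2, 0 of the 8 were called against 1.6% of all genes. In 0 of the 8 were the groups free of overlap, compared with 5.04% of all genes. By their fitted means 6 precursors were lower and 2 (Nts and Gal) were higher in the libraries labelled DHEA, and the median log2 fold change of the 8 was -0.10, beside 0.01 over all genes tested. The signs of Tac1, Tac2 and Adcyap1 turned when single libraries were left out, while those of the other 5 did not. These are bulk tissue libraries, in which fewer cells of a type and less RNA per cell cannot be told apart.

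**Figure D2:**
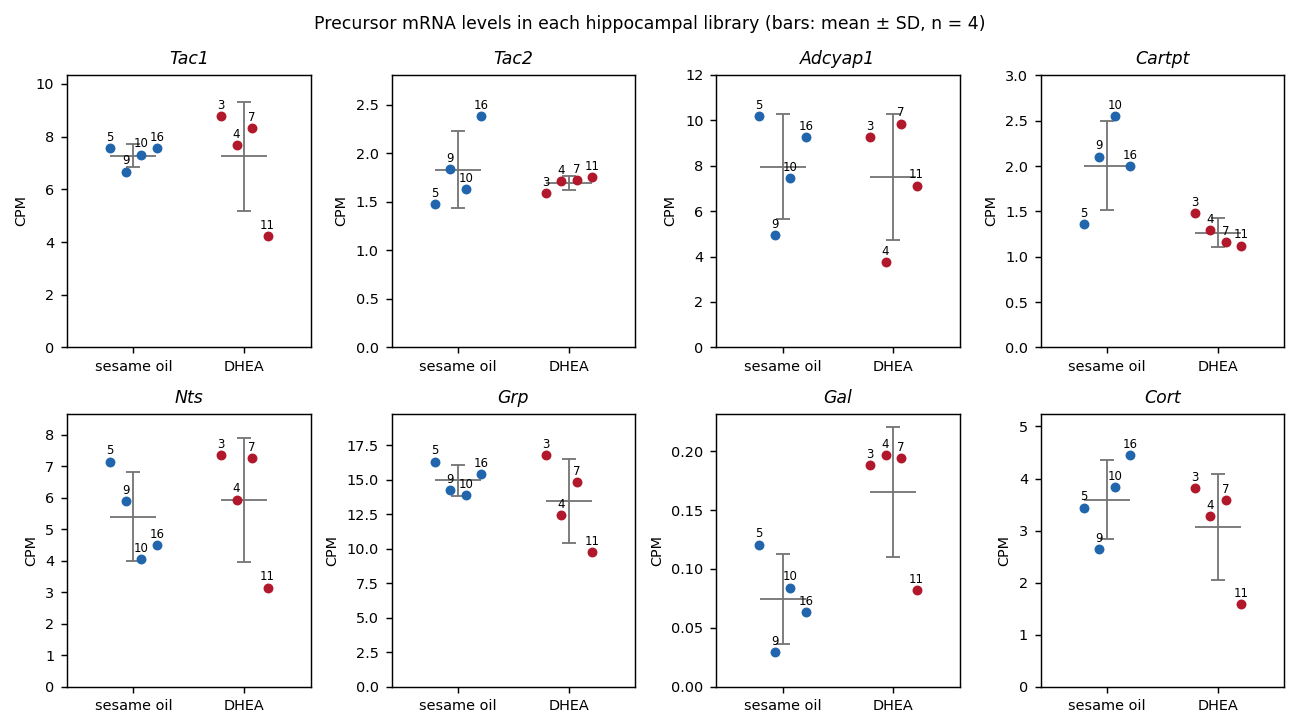
CPM of each precursor (vertical, from 0) in the 4 sesame oil (blue) and 4 DHEA (red) libraries, with library numbers beside the points, the mean as a long bar and the SD as whiskers (n = 4). The groups overlap in all 8 panels. Library 11 is the lowest point for Tac1, Cartpt, Nts, Grp and Cort.

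The tachykinin genes did not separate the groups. Tac1, whose precursor yields substance P and neurokinin A, the ligands of the receptors Tacr1 and Tacr2, was at 8.78, 7.69, 8.32 and 4.22 CPM in DHEA libraries 3, 4, 7 and 11. In sesame oil libraries 5, 9, 10 and 16 it was at 7.58, 6.67, 7.32 and 7.55 CPM. Thus 3 of the 4 DHEA libraries lay above every sesame oil library, while library 11 lay below all of them. The resulting log2 fold change was -0.01 (standard error, SE, 0.18, edgeR adjusted p = 0.989), with a 95% interval of 0.765 to 1.30 as a fold. It was 0.18 without library 11 and ran from -0.11 to 0.18 when 1 library was left out. Tac2, the precursor of neurokinin B, which acts on Tacr3, was at 1.59, 1.71, 1.72 and 1.75 CPM in the DHEA libraries and at 1.48, 1.84, 1.63 and 2.38 CPM in the sesame oil libraries. Its spread over the 8 libraries was 1.37 times the variance that counting alone would give, with a coefficient of variation of 15.5%. For Tac2 the log2 fold change was -0.11 (SE 0.25, edgeR adjusted p = 0.890), and it ran from -0.20 without sesame oil library 5 to 0.03 without sesame oil library 16.

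Adcyap1, the precursor of PACAP, a peptide that raises cyclic AMP and takes part in stress responses, varied widely within both groups. It was at 9.26, 3.76, 9.85 and 7.12 CPM in DHEA libraries 3, 4, 7 and 11, and at 10.2, 4.95, 7.46 and 9.23 CPM in sesame oil libraries 5, 9, 10 and 16. The lowest were library 4 in DHEA and library 9 in sesame oil. The spread was 25.1 times the counting variance, with a coefficient of variation of 30.6%, and the highest library exceeded the lowest 2.71-fold. Its log2 fold change of -0.08 (SE 0.24, edgeR adjusted p = 0.919) was small beside that spread, and it was 0.13 without DHEA library 4, 0.06 without sesame oil library 5 and -0.26 without sesame oil library 9.

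The same libraries, 4 and 9, held the least RNA of the choroid plexus, the secretory epithelium that borders the hippocampus. All 5 genes of that list (Ttr, Kl, Folr1, Clic6 and Kcnj13) were detected in every library, and Ttr, the carrier of thyroid hormone, was the most abundant. Their summed level was 4462, 93.4, 2197 and 4133 CPM in DHEA libraries 3, 4, 7 and 11, and 3116, 508, 2028 and 2258 CPM in sesame oil libraries 5, 9, 10 and 16. All 5 had a positive log2 fold change, with a median of 0.43, and 0 of the 5 passed the unadjusted threshold, which 9.31% of all genes passed. The part of this tissue in the Adcyap1 values was not tested. Without libraries 4 and 9 the log2 fold change of Adcyap1 was -0.04 (unadjusted p = 0.792 from edgeR).

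Cartpt was at 1.48, 1.29, 1.17 and 1.12 CPM in DHEA libraries 3, 4, 7 and 11. In sesame oil libraries 5, 9, 10 and 16 it was at 1.36, 2.10, 2.55 and 2.0 CPM. Libraries 9, 10 and 16 were thus above every DHEA library, while sesame oil library 5 lay among the DHEA values, below library 3. The counts behind these values were 55, 46, 42 and 41 in DHEA and 45, 71, 91 and 63 in sesame oil. Mean levels were 1.26 ± 0.16 CPM in DHEA and 2.0 ± 0.49 CPM in sesame oil (SD, n = 4). The log2 fold change was -0.66 (standard error 0.27), a level 0.631 times that of sesame oil with a 95% interval of 0.429 to 0.929. Its unadjusted p was 0.0224 and its adjusted p 0.448 from edgeR, and the exact permutation test (two-sided, 70 allocations) gave p = 0.0571.

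The log2 fold change of Cartpt ran from -0.81 (without sesame oil library 5) to -0.52 when 1 library was left out. Without sesame oil library 10 the log2 fold change was -0.52 and the unadjusted p 0.0917 from edgeR, while leaving out any other single library kept the p under 0.05. Library 10, and next library 9, also held the most Prl and Gh among the anterior pituitary hormones. Prl (prolactin) was at 0.0269, 0, 0.0832 and 0.219 CPM in DHEA libraries 3, 4, 7 and 11 and at 0.543, 3.32, 16.6 and 0.793 CPM in sesame oil libraries 5, 9, 10 and 16. Over the 7 genes of the pituitary list the summed level was 2.32, 0.645, 1.22 and 1.78 CPM in DHEA and 3.02, 5.51, 25.3 and 2.13 CPM in sesame oil, with Prl the most abundant gene over all libraries. Lhb, which made up most of the sum in DHEA, was highest in sesame oil library 5 (2.32 CPM) and at 0.682 CPM in library 9. Of the 6 pituitary genes tested 5 had a negative log2 fold change, and 2, Gh (growth hormone) and Prl, had an unadjusted p under 0.05 and were lower in DHEA, as were 4.49% of all genes. Their adjusted p was 0.0818 for Gh and 0.0647 for Prl from edgeR. Fshb was at 0 in every library, and Pou1f1, which drives the growth hormone and prolactin lineage, was at 0 outside library 10 (0.168 CPM). Without libraries 9 and 10 the log2 fold change of Cartpt was -0.41 and its unadjusted p 0.248 from edgeR. The part of pituitary RNA in the Cartpt values was not tested.

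**Figure D3:**
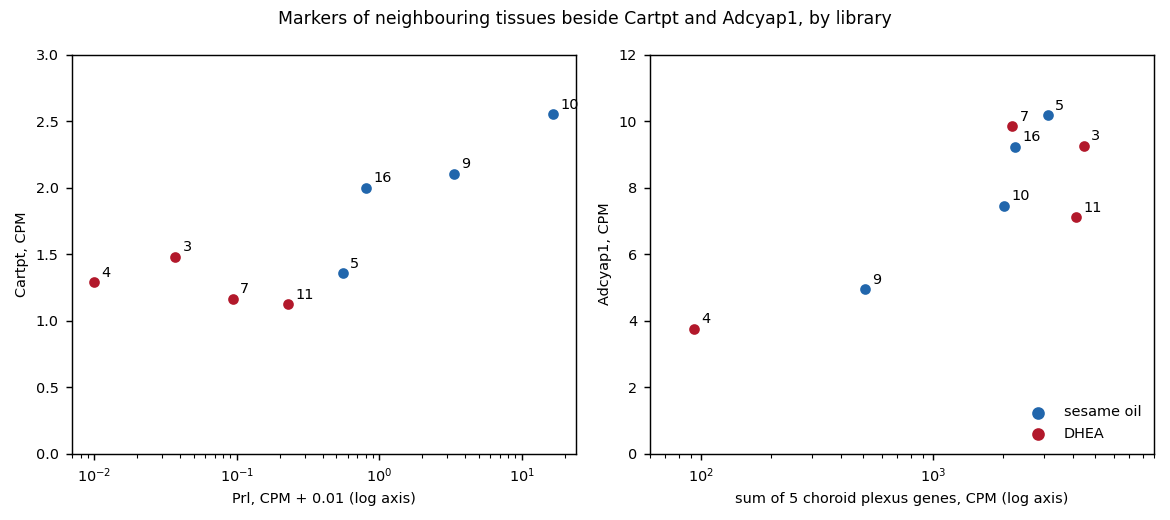
Left, Cartpt CPM against Prl CPM plus 0.01 (log axis). Right, Adcyap1 CPM against the summed CPM of 5 choroid plexus genes (log axis). Each point is 1 library with its number, sesame oil in blue and DHEA in red. Library 10 is highest in both Prl (16.6 CPM) and Cartpt (2.55 CPM), and libraries 4 and 9 are lowest in both choroid plexus genes and Adcyap1.

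The start of Cartpt is shown because it was the single precursor past the unadjusted threshold. The 250 bases before its transcription start, chr13:99900684-99900933 on the minus strand of GRCm38.p6 from RefSeq, hold a complete cyclic AMP response element, TGACGTCA, beginning 112 bases before the start. Capitals mark the half-site TGACG on either strand, and the full element is made of 2 overlapping half-sites.
Cartpt: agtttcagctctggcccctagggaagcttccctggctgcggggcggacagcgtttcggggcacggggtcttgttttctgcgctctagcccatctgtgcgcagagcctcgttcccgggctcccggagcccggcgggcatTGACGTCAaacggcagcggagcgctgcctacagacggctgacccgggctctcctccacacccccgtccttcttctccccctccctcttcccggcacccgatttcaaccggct

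Promoter windows of 300 bases (250 before and 50 after the start) were found for 7 of the 8 genes. Among them Cartpt alone held TGACGTCA, a sequence present in 1.79% of the 32851 windows of all genes. The half-site TGACG on either strand, which is contained in the full element, occurred in 6 of the 7 genes, all but Tac2, against 20.81% of all windows. AGAACA, the half-site of androgen and glucocorticoid receptors, was found in Cort alone, 209 and 138 bases before the start, and in 18.97% of all windows. The AP-1 element TGANTCA was present in Nts alone, 207 bases before the start, and in 7.81% of all windows. Each match describes letters in the window, and binding was not measured.

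Nts, the precursor of neurotensin, a peptide that modulates dopamine neurons and body temperature, had a slightly higher mean in DHEA, but the DHEA values enclosed those of sesame oil. It was at 7.35, 5.95, 7.27 and 3.15 CPM in DHEA libraries 3, 4, 7 and 11, and at 7.15, 5.90, 4.07 and 4.51 CPM in sesame oil libraries 5, 9, 10 and 16. The lowest value of all 8 was again that of DHEA library 11. A log2 fold change of 0.13 (SE 0.23, edgeR adjusted p = 0.851) corresponded to a 95% interval of 0.783 to 1.54 as a fold. When 1 library was left out it ran from 0.01 (without DHEA library 3) to 0.34 (without DHEA library 11).

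Grp, which encodes gastrin-releasing peptide, the mammalian relative of bombesin and the ligand of Grpr, was at 16.7, 12.4, 14.8 and 9.77 CPM in the DHEA libraries. In sesame oil it was at 16.3, 14.2, 13.9 and 15.4 CPM. DHEA library 3 was the highest of all and library 11 the lowest, so the DHEA values enclosed those of sesame oil. With the most counts of the 8 precursors, a mean of 494.5 per library, Grp had the narrowest interval, 0.738 to 1.10 as a fold around a log2 fold change of -0.15 (SE 0.14, edgeR adjusted p = 0.666). Without library 11 its log2 fold change was -0.03, and without DHEA library 3 it was -0.28. An antisense gene overlaps Grp in the GENCODE vM21 annotation, but no exon of the 8 precursors overlaps an exon of another gene there. Whether the counting used strand is not given in the sources used here.

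Gal, which encodes galanin, a mostly inhibitory peptide of noradrenergic and hypothalamic neurons, was too scarce for its difference to be resolved. It had 7, 7, 7 and 3 counts in DHEA libraries 3, 4, 7 and 11, and 4, 1, 3 and 2 counts in sesame oil libraries 5, 9, 10 and 16. These correspond to 0.188, 0.196, 0.194 and 0.0821 CPM in DHEA and 0.121, 0.0296, 0.0841 and 0.0635 CPM in sesame oil. DHEA libraries 3, 4 and 7 stood above every sesame oil library, and library 11 fell within the sesame oil range. The log2 fold change of 1.11 carried a standard error of 0.73 and an adjusted p of 0.645 from edgeR, and its interval ran from 0.751 to 6.22 as a fold. Leaving out 1 library gave 0.86 to 1.43 on the log2 scale. In the two-sided exact permutation test the p was 0.0857.

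Cort, the precursor of cortistatin, a sleep-promoting relative of somatostatin made by cortical and hippocampal interneurons, was at 3.82, 3.28, 3.58 and 1.59 CPM in DHEA libraries 3, 4, 7 and 11. It was at 3.44, 2.64, 3.84 and 4.44 CPM in sesame oil libraries 5, 9, 10 and 16. Library 11 was the lowest by a wide margin and library 16 the highest. The log2 fold change was -0.23 (SE 0.25, edgeR adjusted p = 0.719), and that of the paralogue Sst was -0.08 (SE 0.09, edgeR adjusted p = 0.722). For Cort it was -0.01 without library 11, -0.12 without sesame oil library 16 and -0.35 without DHEA library 3.

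**Figure D4:**
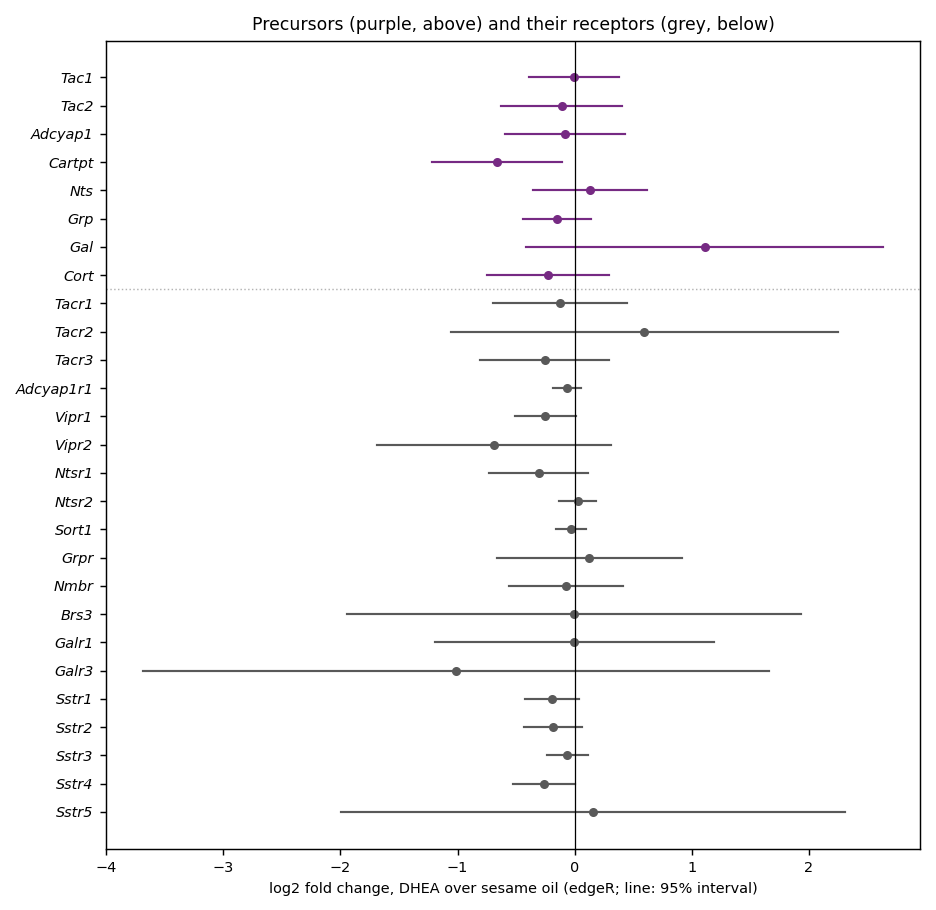
Log2 fold change of DHEA over sesame oil (horizontal) with its 95% interval from edgeR for the 8 precursors (purple) and 19 of their 20 receptors (grey, all but Galr2, which had a mean of 0.75 counts). Only the interval of Cartpt lies on one side of 0, and the intervals of Gal, Galr3, Brs3, Tacr2 and Sstr5 are wide, and these genes had a mean of at most 5.25 counts.

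Several precursors were low together in 1 library. DHEA library 11 was the lowest of all 8 libraries for Tac1, Cartpt, Nts, Grp and Cort. It held 51.0% of the mean of the other 3 DHEA libraries for Tac1, 45.9% for Nts, 44.6% for Cort and 66.6% for Grp. The 3 remaining precursors with over 10 counts stood closer to that mean. They held 85.5% for Cartpt, which was still at its lowest there, 93.4% for Adcyap1 and 104.7% for Tac2. Other peptide genes were also at their lowest there, since Cck, Penk, Pnoc, Crh and Vgf, 5 of the 7 other hippocampal precursors, had their lowest value in library 11. So did 1 of the 4 related precursors, Sst, but not Vip, Nmb and Tac4. For comparison, 12.9% of the 16813 genes with an average of at least 10 counts were lowest in library 11. The 7 other hippocampal precursors summed to 309 CPM in library 11 and to 359 to 428 CPM in the other libraries. The total count of library 11 was 36206289, and it had a summed interneuron marker level of 706 CPM, the lowest but one of a range of 686 to 769 CPM. Of the 10 interneuron markers 2 had their lowest value in library 11, Gad2 (140.5 CPM, others 149 to 176 CPM), which makes GABA, and Slc32a1 (41.9 CPM, others 43.0 to 52.0 CPM), which loads it into vesicles. The other 8 did not, and Lamp5, a marker of neurogliaform cells, had its highest value there (53.1 CPM, others 27.5 to 51.4 CPM).

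**Figure D5:**
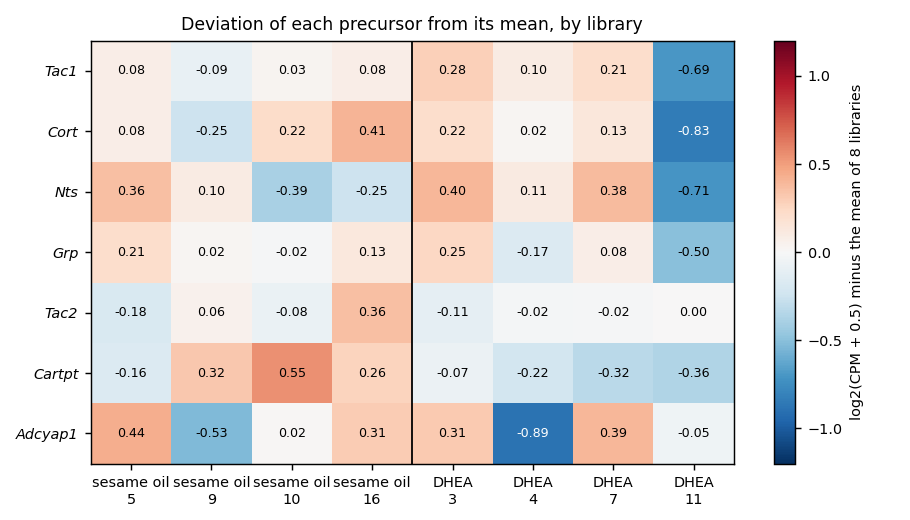
Deviation of log2(CPM + 0.5) from the mean of the 8 libraries (colour and printed value) for 7 precursors, with sesame oil libraries to the left of the black line and DHEA libraries to the right. Gal is left out because of its counts. Library 11 is low for Tac1 (-0.69), Cort (-0.83), Nts (-0.71) and Grp (-0.50), while library 4 is low for Adcyap1 (-0.89).

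The closest relations between precursors over the 8 libraries were weaker without library 11. Of 28 pairs, 5 had a Pearson r above 0.7, all of them among Tac1, Nts, Grp and Cort. The highest was Tac1 with Cort at r = 0.905 (two-sided exact permutation p = 0.0128, adjusted over the 28 pairs 0.156), with a Spearman rho of 0.405 (exact permutation p = 0.327, adjusted 0.538). For Tac1 with Cort, r was 0.518 without library 11, and 0.521 without the 2 libraries farthest from the median of Tac1, numbers 11 and 3. For Tac1 with Nts the values were r = 0.790 (exact permutation p = 0.0144, adjusted 0.156) and rho = 0.905 (exact permutation p = 0.00456, adjusted 0.128), and r was 0.526 without library 11 and 0.370 without libraries 11 and 3. Tac1 with Grp had r = 0.866 (exact permutation p = 0.0209, adjusted 0.156) and rho = 0.619 (exact permutation p = 0.115, adjusted 0.468), and r was 0.432 without library 11 and 0.107 without libraries 11 and 3. Some other pairs were closer without library 11. The r of Adcyap1 with Grp then went from 0.497 to 0.848 and that of Cartpt with Nts from -0.235 to -0.838. That of Tac1 with Gal went from 0.507 to 0.841, but Gal had only 1 to 7 counts per library. No pair passed after adjustment over the 8 libraries, and the libraries share tissue dissection as well as treatment.

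The promoters of Tac1, Nts and Cort, which were low together in library 11, are shown for comparison, again as the 250 bases before the start with the half-site TGACG of either strand in capitals, from RefSeq on GRCm38.p6. That of Grp is not shown. Tac1 is at chr6:7554811-7555060 on the plus strand, Nts at chr10:102490419-102490668 on the minus strand and Cort at chr4:149126764-149127013 on the minus strand. All 3 carry the half-site on the strand opposite to the gene, so it reads CGTCA here, at 197 and 43 bases before the start in Tac1, 166 in Nts and 18 in Cort.
Tac1: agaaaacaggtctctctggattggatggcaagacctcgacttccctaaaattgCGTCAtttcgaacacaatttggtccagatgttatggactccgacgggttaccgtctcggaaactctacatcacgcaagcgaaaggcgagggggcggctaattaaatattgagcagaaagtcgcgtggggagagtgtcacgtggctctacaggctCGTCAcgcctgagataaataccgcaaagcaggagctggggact
Nts: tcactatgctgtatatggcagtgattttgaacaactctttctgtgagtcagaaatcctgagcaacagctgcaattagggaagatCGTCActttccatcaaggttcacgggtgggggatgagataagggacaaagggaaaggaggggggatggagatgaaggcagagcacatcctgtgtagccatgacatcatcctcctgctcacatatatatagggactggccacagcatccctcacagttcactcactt
Cort: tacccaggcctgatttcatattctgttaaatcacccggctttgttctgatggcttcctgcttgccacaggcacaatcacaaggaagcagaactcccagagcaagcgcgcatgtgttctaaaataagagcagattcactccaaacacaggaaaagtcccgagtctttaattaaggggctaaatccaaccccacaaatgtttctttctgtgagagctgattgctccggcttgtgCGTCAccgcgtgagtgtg

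Genes that followed each precursor most closely were sought among 2829 genes whose mean count reached 100 and whose log2(CPM + 0.5) had a standard deviation of at least 0.2, over the 8 libraries. For Tac1 they were Tmem121 (r = 0.965), Prokr2, a prokineticin receptor (r = 0.926), and Slc2a5, a fructose transporter (r = 0.922). For Nts they included Cxcr4, a chemokine receptor (r = 0.935), and Gemin6 (r = 0.878). For Grp they were Tacr3 (r = 0.941), Myh7, a myosin heavy chain (r = 0.919), and Nos1, the neuronal nitric oxide synthase (r = 0.917). For Cort they were B230216N24Rik (r = 0.956), Myh7 (r = 0.951) and Mcm5, a subunit of the replicative helicase (r = 0.948). Without library 11 the r of Tac1 with Tmem121 was 0.745, that of Grp with Tacr3 0.817 and that of Cort with B230216N24Rik 0.814. That of Nts with Cxcr4 was 0.958. For Cort with Myh7 it was then 0.870, for Tac1 with Prokr2 0.686 and for Grp with Nos1 0.689.

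Adcyap1 followed different genes. Kcnh2, a potassium channel gene, had r = 0.986 with Adcyap1, and 0.987 without library 11. Kcnh2 was at 20.5, 13.5, 20.6 and 18.7 CPM in DHEA libraries 3, 4, 7 and 11 and at 22.5, 15.9, 18.8 and 19.99 CPM in sesame oil libraries 5, 9, 10 and 16, so libraries 4 and 9 were again the lowest of their groups. Mmp15, a membrane-bound metalloproteinase (r = 0.930), and Sypl2 (r = 0.929) came next. These genes were picked from 2829 for their likeness, so the r values describe the libraries and carry no test.

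None of the receptors of these peptides separated the groups. Of 20 receptor genes, 0 passed the unadjusted threshold with edgeR, against 9.31% of all genes, and 15 had a negative and 5 a positive log2 fold change, with a median of -0.07. DESeq2 also called 0 of the 20 at an unadjusted p under 0.05. That count was 1 with RLE normalization, 2 with robust moderation and 1 in each of the limma fits on FPKM. Leaving out 1 library gave 0 to 3, the most without sesame oil library 9. Without libraries 4 and 9 it was also 3. Abundance per length differed widely among them. The neurotensin receptors Sort1 (sortilin, a sorting receptor) and Ntsr2 were at 98.3 and 52.8 FPKM, far above Ntsr1 at 1.17 FPKM. Adcyap1r1, the specific receptor of PACAP, was at 29.9 FPKM, while Vipr1 and Vipr2, which also bind VIP, were at 4.06 and 0.0897 FPKM. Adcyap1r1 was measured precisely, at 206 ± 8 CPM in DHEA and 216 ± 8 CPM in sesame oil (SD, n = 4), and its fold lay between 0.877 and 1.04 at the 95% level.

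The smallest unadjusted p among the receptors was that of Sstr4. This gene, through which cortistatin also acts, was the most abundant somatostatin receptor per gene length at 11.2 FPKM. It was at 15.5, 14.5, 12.5 and 13.9 CPM in DHEA libraries 3, 4, 7 and 11 and at 20.2, 12.9, 18.5 and 16.1 CPM in sesame oil libraries 5, 9, 10 and 16. Sesame oil library 9 lay within the DHEA values and the other sesame oil libraries above all of them. Its log2 fold change was -0.26 (SE 0.13, edgeR unadjusted p = 0.0503, adjusted p = 0.531). For Sstr4, leaving out 1 library moved the log2 fold change from -0.17 (without sesame oil library 5, edgeR unadjusted p = 0.217) to -0.37 (without sesame oil library 9, edgeR unadjusted p = 0.00521). With RLE normalization its unadjusted p was 0.0447, and without libraries 4 and 9 the log2 fold change was -0.40 (edgeR unadjusted p = 0.00411). Vipr1 had a log2 fold change of -0.25 (SE 0.12, edgeR unadjusted p = 0.0576), and leaving out 1 library moved it from -0.16 (without DHEA library 4, edgeR unadjusted p = 0.173) to -0.37 (without DHEA library 7, edgeR unadjusted p = 0.00401). Without libraries 4 and 9 it was -0.14 (edgeR unadjusted p = 0.284). The receptors Grpr, Nmbr and Tacr1 for bombesin-like peptides and substance P were low, at 0.366, 0.826 and 0.314 FPKM, and Tacr3, the neurokinin B receptor, was at 1.08 FPKM. Galanin receptors were near the limit of detection, with Galr1 at 0.109 FPKM, Galr2 at 0.00653 and Galr3 at 0.0268 FPKM, and so were Brs3 at 0.0347 and Sstr5 at 0.0558 FPKM.

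Genes of the machinery that makes and removes peptides passed the unadjusted threshold at about the 9.31% seen over all genes, and none passed after adjustment. Among 11 genes of processing enzymes and granule proteins, 0 were higher and 1 was lower at an unadjusted p under 0.05. That gene was Chgb (chromogranin B, a granule matrix protein), at 595, 578, 574 and 530 CPM in DHEA libraries 3, 4, 7 and 11 and at 653, 647, 620 and 627 CPM in sesame oil libraries 5, 9, 10 and 16. The groups of Chgb did not overlap (as in 5.04% of all genes), and its log2 fold change was -0.16 (SE 0.06, edgeR unadjusted p = 0.0132, adjusted p = 0.400). Cpe (carboxypeptidase E), the most abundant gene of this list, was at 2425 ± 147 CPM in DHEA and 2262 ± 73 CPM in sesame oil (SD, n = 4) and did not pass, nor did Pcsk1, a convertase and the least abundant. Among 7 peptidases that degrade peptides, Nln (neurolysin, which cleaves neurotensin) was higher, at 29.2 to 32.1 CPM in DHEA and 22.3 to 29.2 CPM in sesame oil, with a log2 fold change of 0.22 (SE 0.09, edgeR unadjusted p = 0.0191, adjusted p = 0.424), and the other 6 did not pass, Ace (the most abundant) and Ece2 (the least) among them.

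Of 7 other hippocampal precursors, Vgf passed the unadjusted threshold. Vgf, an activity-regulated precursor, was at 99.2 to 129 CPM in DHEA and 124 to 168 CPM in sesame oil, with a log2 fold change of -0.32 (SE 0.10, edgeR unadjusted p = 0.00415, adjusted p = 0.299). Npy, Cck, Penk, Pdyn, Pnoc and Crh did not pass, nor did any of the 4 tested related precursors, Tac4, Vip, Nmb and Sst. The unadjusted threshold was passed by 9.31% of all genes.

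Markers of hippocampal cells and of neighbouring regions were examined beside the precursors, because several of these peptides are abundant in the amygdala, subiculum and hypothalamus. All 10 genes of pyramidal and granule neurons averaged at least 10 counts, with a summed level of 1091 to 1342 CPM. So did all 7 thalamic genes and all 7 genes of subiculum and entorhinal cortex. This threshold therefore does not tell the regions apart and is no check of the tissue label. No marker passed after adjustment, and 9.31% of all genes passed the unadjusted threshold. Of the pyramidal and granule neuron genes 5 had a positive and 5 a negative log2 fold change. Bok and Spink8, both pyramidal cell genes, were higher in DHEA by 0.24 and 0.32 on the log2 scale (unadjusted p = 0.0250 and 0.0264 from edgeR). Among 5 mossy cell genes Calcrl was higher by 0.37 (SE 0.13, edgeR unadjusted p = 0.0122), and among 7 genes of subiculum and entorhinal cortex of which 5 had a positive log2 fold change, Nr4a2 was lower, with a log2 fold change of -0.32 (SE 0.10, edgeR unadjusted p = 0.0058). The most and the least abundant genes of these lists by FPKM did not pass. They were Neurod6 and Iyd for pyramidal and granule neurons, Calb2 and Csf2rb2 for mossy cells and Lmo3 and Rorb for subiculum and entorhinal cortex. By counts Zbtb20 stood above Neurod6, with means of 16375 and 7932. None of the 10 interneuron genes (4 with a positive log2 fold change) and none of the 7 thalamic genes (6 positive) passed. None of the 9 hypothalamic genes passed, and only 3 of them had a mean of at least 10 counts. Of the 9, 7 had a negative log2 fold change, and the median of the 9 was -0.56. The 9 genes summed to 2.18, 1.80, 1.25 and 2.44 CPM in DHEA libraries 3, 4, 7 and 11. In sesame oil libraries 5, 9, 10 and 16 they summed to 3.38, 2.43, 2.66 and 1.65 CPM, so the groups overlapped. Pmch was the most abundant, and 6 of the 9 were at 0 in some library. Of 9 genes of striatum and amygdala (6 positive), whose sum was 99.0 to 133 CPM, only Tfap2d passed, with 28 counts in DHEA library 4 and at most 1 in any other. The part of these tissues in the precursor values was not tested.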

How the data were processed

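Hippocampal polyA RNA was sequenced as paired-end reads. The authors removed low-quality reads, aligned clean reads with HISAT2 and counted them per gene with HTSeq-count. The submitters' processing notes name fastp, HISAT2, HTSeq and the build GRCm39, while tool versions, annotation and strand setting are not given in the sources used here. The authors deposited raw counts without normalization, and FPKM calculated from them. In 25234 of 25234 genes with FPKM in at least 2 libraries, the deposited FPKM equalled counts divided by the library total and 1 length per gene within 0.1%, so FPKM served for levels between genes and for 2 alternative tests. No pair of replicates agreed within sampling noise (chi-square over degrees of freedom 7.93 to 57.1).

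TMM normalization and the quasi-likelihood test were run on the counts with edgeR 4.0.16 (R 4.3.3) over the 27612 genes with at least 1 count (prior count 0.125), with Benjamini-Hochberg adjustment over all of them. The standard error was the size of the log2 fold change over the root of F. For single values, log2(CPM + 0.5) was permuted over the 70 allocations of the libraries (exact, two-sided), whose smallest p is 0.0286. Totals of 31483772 to 38038361 counts leave genes with a mean count under 10 imprecise. Alternatives were DESeq2 1.42.0, RLE normalization, other count filters, robust moderation, prior count 1, limma 3.58.1 on log2(FPKM + 1) and log2(FPKM + 0.1), and leaving out each library. Leaving out libraries 4 and 9, and libraries 9 and 10, was chosen after seeing the data.

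The members and lists were chosen with earlier results of these data known. Genes named are the 8 precursors, their receptors, list genes with an unadjusted p under 0.05, the most and least abundant gene of each list by FPKM, and the 3 genes most like each precursor with a mean count of at least 100. Not every gene that this rule allows is reported here. Other list members are named to complete a count, for scale, or for their values in single libraries. Promoter windows came from RefSeq on GRCm38.p6, an earlier build than that of the counts. The study's table of differential genes carries signs opposite to those that the deposited labels give, so groups are named by label, and its values were not used. Scripts were tested on simulated counts.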

Additional observations from a re-analysis of the deposited data

Results flagged for a closer look

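With 4 libraries a group, a library was set apart when its gap to the nearest other exceeded Dixon's 95% critical share of the group's range. Of 56 groups of precursors and receptors examined, 3 met this. Chance would give 2.8 if the values were normally distributed. Groups of a few counts are not, so no comparison with chance is drawn. For Gal, DHEA library 11 had 0.0821 CPM against 0.188 to 0.196 CPM in the other DHEA libraries (gap 0.931 of the range). For Galr2, sesame oil library 9 had 0.0296 CPM, a single count, and the others 0 (gap 1 of the range). For Sstr5, DHEA library 7 had 0.555 CPM against 0 to 0.0821 CPM (gap 0.852 of the range). Each gene was at a mean of at most 5.25 counts.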

How the results depend on the processing

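The log2 fold change of Cartpt kept its sign in 18 of 18 alternatives, and its range when 1 library was left out was -0.81 to -0.52. Its unadjusted p under 0.05 from edgeR was lost without sesame oil library 10 (0.0917), without libraries 4 and 9 (0.0559) and without sesame oil libraries 9 and 10 (0.248). The log2 fold change was still -0.66 without libraries 4 and 9, but it was -0.41 without libraries 9 and 10. Fewer samples also lower the power, and the part of this was not tested. DESeq2 gave Cartpt -0.67 with an unadjusted p of 0.0110 and no adjusted p. The number of precursors with an unadjusted p under 0.05 was 1, and 0 to 1 when 1 library was left out. With log2(FPKM + 1) in limma it was 2, and with log2(FPKM + 0.1) also 2, Gal being added with log2 differences of 0.14 and 0.66. It was 0 with a fold change of at least 2 and 0 without libraries 4 and 9. The adjusted count stayed at 0 precursors under every alternative run. Over all genes, 0 passed after adjustment with edgeR, 153 with DESeq2, 4 with robust moderation, 12 without libraries 4 and 9, and 0 to 93 when 1 library was left out, the highest without DHEA library 7. The cause was not tested. Genes with an unadjusted p under 0.05 numbered 2571, and 1786 to 3667 when 1 library was left out. Among receptor fold changes under the alternatives, 333 stayed above an unadjusted p of 0.05 and 20 fell below it, 7 of these being Sstr4. RLE normalization shifted the median log2 fold change of all genes by -0.01. No paired analysis was possible because the groups share no replicate number and the litter of each library is not given.

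Depth limits Gal, Galr2, Galr3, Brs3, Tacr2 and Sstr5, where 3 counts in a library are a sizeable part of the value.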
